A study of Mus musculus with 4 samples.

Results

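The genes described here are the 10 listed for MHC class I and peptide loading, namely B2m, H2-D1, H2-K1, H2-Q2, H2-Q4, H2-Q7, H2-T23, Tap1, Tap2 and Tapbp. They were found by symbol among the 30905 genes of the deposited tables, and all 10 were present. Their UMI counts, the molecules counted by unique barcodes at the 3′ end of transcripts, were followed in single cells of mouse pancreatic islets in 4 libraries. The groups, with 1 library each, were late db/db with intervention, late db/db, early db/db and normal control. Early db/db was labelled as postnatal day 70 and the other groups as postnatal day 98. The db allele disrupts the leptin receptor gene, and db/db mice are a model of obesity with type 2 diabetes. The genotype label of all 4 groups, the control included, reads db/db(C57BL/KsJ), while the growth protocol speaks of male C57BL/6 mice beside the db/db mice, so the labels do not settle the strain of the control. The intervention is given in the sources used here only by an abbreviation that they do not expand, and the number of mice behind a library is not given. The deposited table of the early db/db sample is named like another control, and here the sample label decided its group.

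Classical class I molecules show short peptides from inside the cell to CD8 T cells. H2-K1 and H2-D1 encode their polymorphic heavy chains, B2m encodes the invariant light chain beta-2 microglobulin, and H2-Q2, H2-Q4, H2-Q7 and H2-T23 encode nonclassical heavy chains. Tap1 and Tap2 form the transporter that carries peptides into the endoplasmic reticulum, and Tapbp encodes tapasin, which ties the transporter to empty class I molecules. In islets, class I on beta cells is the structure that CD8 T cells read in autoimmune diabetes. Heavy chain genes differ between inbred strains. C57BL/6 mice carry the b haplotype of this locus and C57BLKS mice the d haplotype, and the counts were made against a genome of the C57BL/6 strain, so a molecule of another haplotype may be counted under another gene or not at all.

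All values rest on 1 library per group, so nothing was checked against replicates or tested between groups, and 95% intervals cover counting error only. Strain, group, animal and library cannot be told apart. The libraries held between 120934779 and 166034254 UMIs, 4458 to 5983 cells were kept, and the median cell held 26385.5, 6201 and 14563 UMIs in the intervention, late db/db and early db/db libraries, against 25984 UMIs in the control. Pairs of libraries shared between 8 and 21 cell barcodes. Cells were named from clusters made without hormone, MHC, antigen presentation or interferon genes. Beta-like cells numbered 3397, 844, 1669 and 2241 in the intervention, late db/db, early db/db and control libraries, and 12 of their 13 markers were found in at least 10% of them in each library. Alpha-, macrophage-, B- and T-like cells held all of their 11, 11, 11 and 15 markers by this measure, delta-like cells 7 of 8 and endothelial-like cells at least 10 of 11. B-like cells (1918 and 263) and T-like cells (2045 and 115) reached 50 cells in late and early db/db only. Levels are given as CPM, the UMIs of a gene scaled to 1000000 UMIs of its class and library without mitochondrial and 7 hormone genes. Genes were compared between 2 libraries (written as entered) when the higher level reached 50 CPM and both together held 50 UMIs, and they were counted past the fold from 2-fold apart.

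B2m lies at chr2:122147686-122153083 on the plus strand (GRCm38, the coordinates of the mm10 build), and the other genes lie on chromosome 17. From the centromere these are Tapbp (33915899 to 33929292, plus strand), H2-K1 (33996017 to 34000347, minus), Tap1 (34187553 to 34197225, plus), Tap2 (34203527 to 34216321, plus), H2-D1 (35262730 to 35267499, plus), H2-Q2 (35342242 to 35346762, plus), H2-Q4 (35379617 to 35385290, plus), H2-Q7 (35439155 to 35443773, plus) and H2-T23 (36029773 to 36032855, minus). All are annotated as protein coding. The coding sequences of H2-D1 and H2-K1 were 88.3% identical, those of H2-D1 and H2-Q2 84.3%, and those of H2-K1 and H2-Q2 82.2%. The last 300 bases of the same transcripts, nearer to where this assay reads, were 58.0%, 43.9% and 46.0% identical. Counts of these copies are uncertain to the extent that the counting split or dropped shared reads.

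The promoters of the 3 heavy chain genes that separated the libraries, and of the light chain gene they pair with, are shown from 250 bases before to 50 bases after the RefSeq start (GRCm38.p6, a C57BL/6 sequence). Capitals mark GGATTCCC, the kappa-B element of class I promoters, and GAAANNGAAA, the core of interferon-stimulated response elements, each searched on both strands.
H2-D1, chr17:35262844-35263143, plus strand: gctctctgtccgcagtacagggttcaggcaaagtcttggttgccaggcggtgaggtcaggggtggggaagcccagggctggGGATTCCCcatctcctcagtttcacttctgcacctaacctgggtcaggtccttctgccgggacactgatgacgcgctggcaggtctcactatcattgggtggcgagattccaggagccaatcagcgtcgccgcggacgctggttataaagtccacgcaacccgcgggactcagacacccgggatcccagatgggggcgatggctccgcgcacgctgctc
H2-K1, chr17:34000298-34000597, minus strand: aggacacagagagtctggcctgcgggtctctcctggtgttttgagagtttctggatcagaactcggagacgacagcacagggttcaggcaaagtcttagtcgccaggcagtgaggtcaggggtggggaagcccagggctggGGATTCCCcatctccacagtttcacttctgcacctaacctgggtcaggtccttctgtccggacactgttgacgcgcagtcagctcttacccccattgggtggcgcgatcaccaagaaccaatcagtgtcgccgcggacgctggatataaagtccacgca
H2-Q2, chr17:35342057-35342356, plus strand: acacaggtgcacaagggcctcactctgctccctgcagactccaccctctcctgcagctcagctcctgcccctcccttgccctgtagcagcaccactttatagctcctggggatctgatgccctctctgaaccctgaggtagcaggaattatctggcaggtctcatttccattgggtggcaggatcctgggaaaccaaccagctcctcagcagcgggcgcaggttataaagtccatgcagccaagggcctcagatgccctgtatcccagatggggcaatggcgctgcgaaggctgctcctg
B2m, chr2:122147437-122147736, plus strand: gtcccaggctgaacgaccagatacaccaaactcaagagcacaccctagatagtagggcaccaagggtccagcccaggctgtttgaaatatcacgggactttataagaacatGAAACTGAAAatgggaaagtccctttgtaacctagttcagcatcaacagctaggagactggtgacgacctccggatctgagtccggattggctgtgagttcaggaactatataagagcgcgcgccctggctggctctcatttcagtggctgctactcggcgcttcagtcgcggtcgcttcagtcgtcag
GGATTCCC was found in H2-D1 (first base at -169 from the start) and H2-K1 (-109), and among the other members in H2-Q7 (-131). It occurs in 1.02% of 32851 promoters of the same length. GAAANNGAAA was found in B2m (-139) and H2-T23 (-124), and occurs in 3.44% of those promoters. Neither string stands in the H2-Q2 window. A promoter was at hand for 9 of the 10 members, all but Tap2. The H2-D1 and H2-K1 windows share the marked element, and a link between these strings and the levels of the genes was not tested.

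In beta-like cells the 3 db/db libraries differed from the control in which heavy chain gene they counted. H2-D1 stood at 1491 CPM in the intervention library, 1662 CPM in late db/db and 1776 CPM in early db/db, against 364 CPM in the control. H2-K1 stood at 160 CPM in the intervention library, 185 CPM in late db/db and 233 CPM in early db/db, against 643 CPM in the control. All 3 db/db libraries were thus above the control for one classical heavy chain and below it for the other. H2-Q2 had 5, 1 and 2 UMIs in the intervention, late db/db and early db/db libraries, against 3220 UMIs, or 104 CPM, in the control. Of this nonclassical gene, almost all counts in beta-like cells came from the control.

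**Figure D1:**
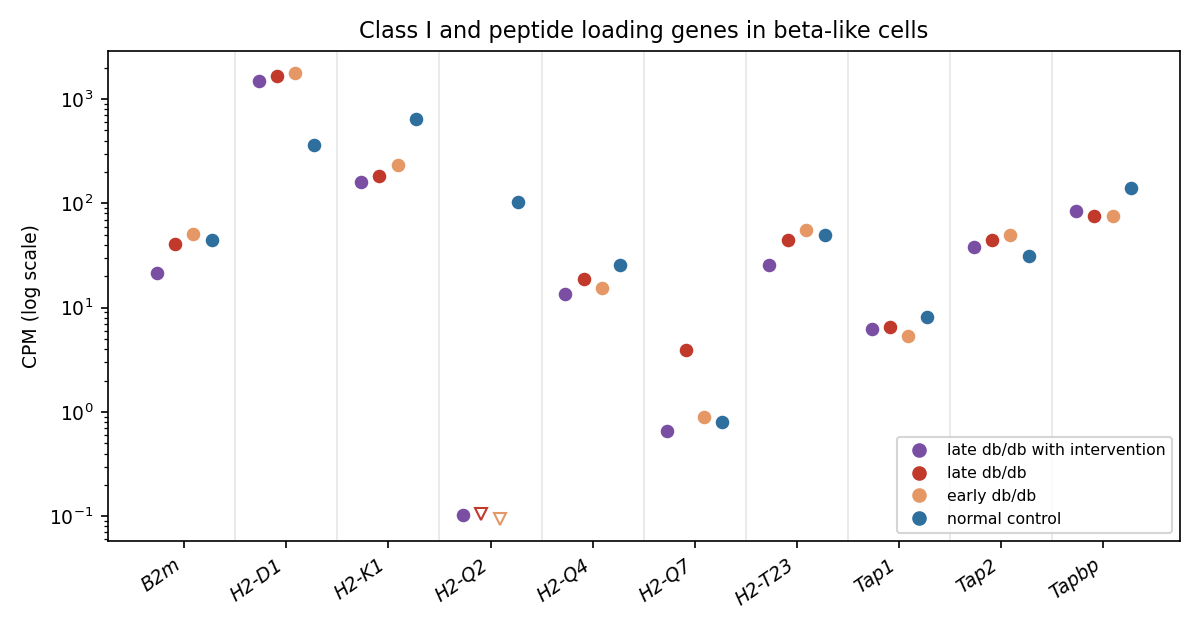
Levels of the 10 genes in beta-like cells, as CPM on a log axis. Each point is 1 library, and open triangles mark the level that 3 UMIs would give where a library held fewer. H2-D1 lay at 1491 to 1776 CPM in the db/db libraries and 364 CPM in the control, and H2-Q2 reached 104 CPM in the control.

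For late db/db against control, the log2 ratio of H2-D1 was 2.19 (95% interval 2.16 to 2.22), a 4.57-fold higher level. H2-K1 was 3.48-fold lower, at -1.80 (-1.84 to -1.75), and H2-Q2 was lower at -11.53 (-16.83 to -9.05), which rests on 1 UMI in late db/db. Of the 10 members 4 entered, and 1 was higher and 2 were lower, where 16.4% of the 4194 genes that entered were past the fold in either direction. H2-Q2 could enter only through its control level, here and in each comparison with the control below, so the entry rule fixed its place among the lower members and nothing is read from it. The fourth, Tapbp, was at 76.1 CPM in late db/db, against 142 CPM in control cells, and its log2 ratio was -0.90 (-0.97 to -0.82). The median over the members that entered, H2-Q2 among them, was -1.35, and nothing is read from it either. Over all genes the median was -0.29, which other scalings moved upward by 0.28 (trimmed mean of M values) and 0.66 (all UMIs). H2-D1 remained higher (2.18 to 2.85) and H2-K1 lower (-1.96 to -1.14) under every scaling and cell filter tried.

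Early db/db and the intervention library were set against the same control library, so these comparisons share it and are given as values side by side. For early db/db, H2-D1 was at 2.29 (2.26 to 2.32), H2-K1 at -1.47 (-1.50 to -1.43) and H2-Q2 at -10.68 (-13.72 to -8.82) on the log2 scale. Of 6 members that entered, 1 was higher and 2 were lower, H2-Q2 by the entry rule, where 22.4% of all genes were past the fold. With all UMIs as the denominator 1 member was past it, H2-D1, since H2-K1 came just inside the fold (-0.9985) and H2-Q2 did not enter. For the intervention library, H2-D1 was at 2.03 (2.01 to 2.06), H2-K1 at -2.01 (-2.05 to -1.97) and H2-Q2 at -9.99 (-11.62 to -8.77). Here 1 of 4 members was higher and 2 were lower, H2-Q2 again by the entry rule, and 12.7% of all genes were past the fold.

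Next, 2 pairs of db/db libraries were compared. Late against early db/db, 0 of 5 members that entered were past the fold (1.1% of all genes), with log2 ratios between -0.33 (H2-K1 and B2m) and 0.01 (Tapbp). In the intervention library against late db/db, 0 of 3 members were past it (1.45% of all genes), namely H2-D1 at -0.16, H2-K1 at -0.21 and Tapbp at 0.15. The intervention and early db/db libraries were not compared in this way, and their levels lay further apart for B2m (21.7 and 51.0 CPM) and H2-T23 (25.9 and 55.3 CPM). The sum of the 6 heavy chain genes was 1691 CPM in the intervention library, 1914 CPM in late db/db, 2081 CPM in early db/db and 1187 CPM in the control. Late db/db was 0.69 above the control on the log2 scale (0.67 to 0.71), less than the ratio of H2-D1 alone, and 1.35 above it with all UMIs as the denominator.

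The difference ran through the beta-like cells and was not carried by a few of them. Between the 10th and 90th percentile of cells, H2-D1 spanned 718 to 2384 CPM in the intervention library, 903 to 2420 CPM in late db/db and 991 to 2781 CPM in early db/db, against 65.3 to 631 CPM in the control. These ranges did not overlap between any db/db library and the control. After thinning every cell to 3000 UMIs, which kept 3308, 814, 1623 and 2190 cells, H2-D1 had a UMI in 78.3%, 84.8% and 82.4% of cells of the intervention, late db/db and early db/db libraries, against 24.1% in the control. Without thinning these shares were 98.2%, 98.3% and 98.8%, against 90.6%. The 3000 UMIs include hormone and mitochondrial ones, which CPM leave out, so thinned shares also depend on the hormone content of cells. Other genes held 28426306 of 66190124 UMIs in late db/db beta-like cells, against 30983985 of 114056038 UMIs in the control. H2-Q2 had a UMI in 69.7% of control beta-like cells before thinning (median 49414 UMIs per cell), and in 1.27% of control macrophage-like cells (median 10437 UMIs). After thinning it was found in 7.99% of the control beta-like cells and in 0 of 66 macrophage-like cells. The few control cells that fell in clusters made up mostly of db/db beta-like cells had levels near those of the other control cells. In cluster 7 the 381 late db/db cells had 1617 CPM of H2-D1 and 184 CPM of H2-K1, against 452 and 602 CPM in the 26 control cells. In cluster 3, which held 2164 of the 2241 control cells, the 90 intervention cells had 1117 and 152 CPM, against 361 and 648 CPM in the control cells.

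Alpha-like cells, the source of glucagon, showed the same exchange. H2-D1 was at 860, 967 and 983 CPM in the intervention, late db/db and early db/db libraries, against 403 CPM in the control. H2-K1 was at 121, 142 and 179 CPM in those 3 libraries, against 454 CPM in the control. H2-Q2 had 0, 0 and 1 UMIs, against 1462 UMIs, or 118 CPM, in the control. Late db/db against control, H2-D1 was higher by 1.26 (1.19 to 1.33), H2-K1 was at -1.68 (-1.84 to -1.52), and H2-Q2 was at least 98.1-fold lower, taking the floor of 3 UMIs in the late library. Thus 1 of 6 members was higher and 2 were lower, H2-Q2 by the entry rule, where 2.46% of all genes were past the fold. In the intervention library against late db/db 0 of 5 members were past it (1.69% of all genes). Late db/db alpha-like cells also held B cell markers at 139 CPM, against 3.65 CPM in the control, T cell markers at 55.1 CPM, against 5.10 CPM, and Cd74, the invariant chain of class II, at 166 CPM, against 4.62 CPM. All 3 class II genes that entered were higher. Cd74 could enter only through its late db/db level, so the entry rule fixed its direction and nothing is read from this count. Of these B and T cell markers, only Cd5 was at 0 in late db/db, and their part in the class I values was not tested.

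Delta-like cells, the source of somatostatin, followed. H2-D1 was at 1312, 1364 and 1559 CPM in the intervention, late db/db and early db/db libraries, against 556 CPM in the control. H2-K1 was at 265, 277 and 333 CPM in those 3 libraries, against 625 CPM in the control, and H2-Q2 had 1, 0 and 0 UMIs, against 367 UMIs. Late db/db against control, H2-D1 was higher by 1.30 (1.22 to 1.37), H2-K1 was at -1.17 (-1.31 to -1.04), and H2-Q2 was at least 46.3-fold lower. Of 7 members 1 was higher and 2 were lower, H2-Q2 by the entry rule (2.55% of all genes past the fold), and 0 of 6 were past it in the intervention library against late db/db (1.25%). Late db/db delta-like cells held B cell markers at 42.9 CPM, against 20.7 CPM in the control, and T cell markers at 79.4 CPM, against 3.45 CPM, and their part was not tested either.

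**Figure D2:**
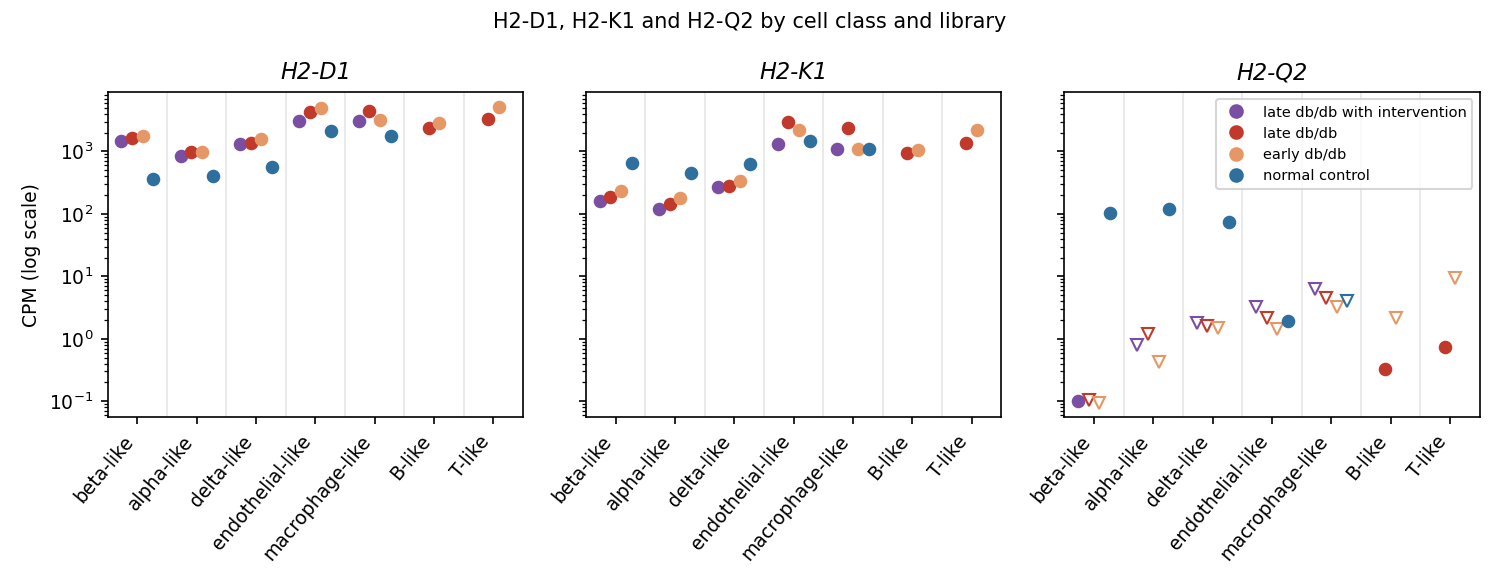
CPM of H2-D1, H2-K1 and H2-Q2 on a log axis in 7 cell classes. Points are libraries, and open triangles stand at the level of 3 UMIs where fewer were counted. H2-Q2 stood out in control beta-, alpha- and delta-like cells, at 104, 118 and 74.5 CPM.

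Outside the endocrine cells the exchange was not seen in this form. H2-Q2 had 4 UMIs (1.94 CPM) in control endothelial-like cells and 1 UMI (1.36 CPM) in control macrophage-like cells. Over all kept cells H2-Q2 was found in 0.122%, 0.318% and 0.152% of cells of the intervention, late db/db and early db/db libraries, and in 60.3% of control cells. Its neighbour H2-Q1, another nonclassical gene, had the reverse pattern at a low level, with 24, 183 and 57 UMIs in the db/db libraries and 0 UMIs in the 4458 control cells, which allows a share of up to 0.0673% of cells with a UMI.

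The ratio of H2-D1 to H2-K1 counts, which no scaling touches, set the endocrine classes apart. In beta-like cells it was 9.33, 8.99 and 7.63 in the intervention, late db/db and early db/db libraries, against 0.566 in the control. In alpha-like cells it was 7.11, 6.83 and 5.49, against 0.889, and in delta-like cells 4.95, 4.93 and 4.69, against 0.889. The 2 counts changed places as the larger one in all 3 endocrine classes. In endothelial-like cells the ratio was 2.30, 1.48 and 2.25, against 1.46, and in macrophage-like cells 2.79, 1.88 and 2.92, against 1.60. B-like cells had 2.48 in late and 2.72 in early db/db, and T-like cells 2.37 and 2.38. Within the control alone, H2-K1 was thus the larger count in endocrine cells and H2-D1 in endothelial- and macrophage-like cells.

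**Figure D3:**
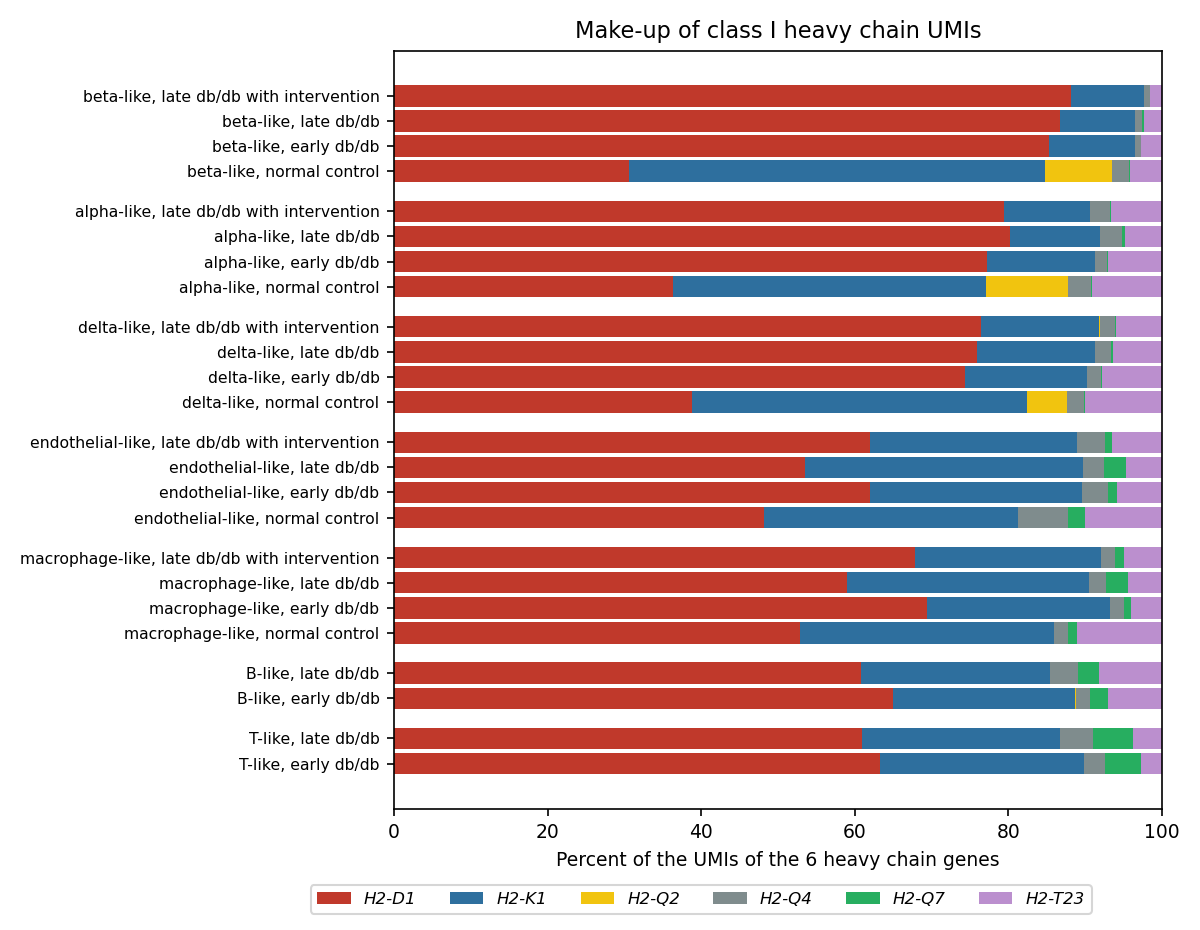
Share of each heavy chain gene in the UMIs of the 6 heavy chain genes, in percent, by cell class and library. H2-D1 made up 88.2%, 86.8% and 85.4% in beta-like cells of the intervention, late db/db and early db/db libraries and 30.7% in the control, where H2-Q2 added 8.75%.

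B2m, the light chain that all class I heavy chains need, separated endocrine from endothelial and immune cells more than it separated the groups. In beta-like cells it was at 21.7, 40.7 and 51.0 CPM in the intervention, late db/db and early db/db libraries, against 44.3 CPM in the control. In endothelial-like cells it was at 996, 2230 and 1713 CPM, against 1573 CPM. Macrophage-like cells had the most, with 1894, 3402 and 2076 CPM, against 2423 CPM. B-like cells had 926 and 1538 CPM and T-like cells 1373 and 1993 CPM in late and early db/db. Among these 7 classes the lowest endothelial, macrophage, B or T level, 926 CPM, was above the highest endocrine one, 146 CPM. Heavy chain sums differed less, from 1083 CPM (alpha-like, intervention) to 2096 CPM (delta-like, early db/db) in endocrine cells and from 3374 CPM (macrophage-like, control) to 8190 CPM (T-like, early db/db) in endothelial and immune cells. There were 77.9, 47.1 and 40.8 heavy chain UMIs for each B2m UMI in beta-like cells of the intervention, late db/db and early db/db libraries, against 26.8 in the control. In alpha-like cells there were 21.4, 20.1 and 8.69, against 32.0, and in delta-like cells 34.2, 27.7 and 30.7, against 35.8. The db/db libraries were thus above the control in beta-like cells and below it in alpha-like cells. In delta-like cells they were also below it, but on only 83, 121 and 139 B2m UMIs, against 197 UMIs. No interval was computed for these ratios. Endothelial-, macrophage-, B- and T-like cells had between 1.39 and 4.92. Counts at 3′ ends are set against each other here as counts and not as molecules of protein.

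**Figure D4:**
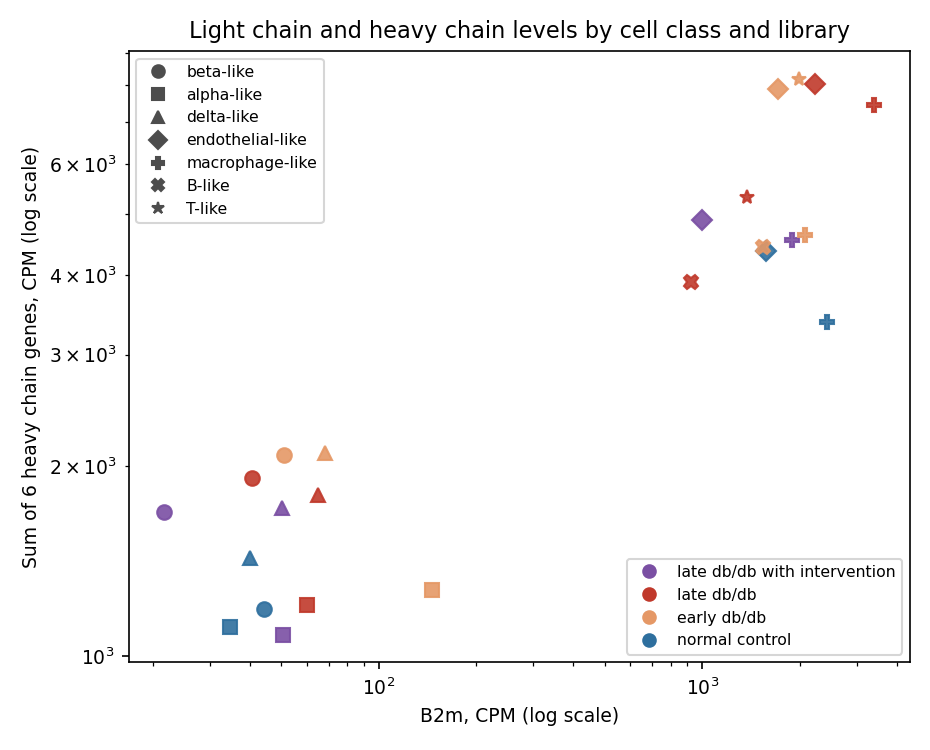
B2m against the sum of 6 heavy chain genes, both in CPM on log axes, 1 point for each cell class and library. Beta-, alpha- and delta-like cells lie at or below 146 CPM of B2m, and endothelial-, macrophage-, B- and T-like cells at or above 926 CPM.

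Markers of immune cells, whose own B2m is high, were also counted in beta-like cells. The summed B cell markers stood at 7.89, 49.99 and 6.70 CPM in beta-like cells of the intervention, late db/db and early db/db libraries, against 41.3 CPM in the control, and Ms4a1 and Pax5 were among those at 0 in the intervention library and the control. The summed T cell markers stood at 1.51, 44.3 and 0.857 CPM, against 0.291 CPM, and 2, 0, 6 and 9 of the 15 markers were at 0. The summed macrophage markers stood at 292, 269 and 232 CPM, against 171 CPM, and only Mrc1 in late db/db was at 0. If all macrophage marker counts came from macrophage-like cells of the same library, they would bring 89.0%, 53.4% and 31.0% of the B2m of beta-like cells in the intervention, late db/db and early db/db libraries, and 35.6% in the control. The same sum would bring between 1.38% and 3.19% of H2-D1. Beside the macrophage part, T-like cells would bring 20.5% and B-like cells 10.5% of the B2m of late db/db beta-like cells. In early db/db these parts were 0.435% and 1.33%. The intervention library and the control held too few B- and T-like cells for this calculation. The part of RNA from other cells in the B2m differences between libraries was not tested.

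Alpha-like cells of early db/db stood apart in B2m. They had 146 CPM, against 34.8 CPM in the control, while the intervention and late db/db libraries had 50.5 and 59.9 CPM, and the log2 ratio of early db/db over control was 2.08 (1.91 to 2.24). Both alpha clusters showed it, with 158 and 144 CPM in early db/db, against 34.8 and 32.5 CPM in the control. In the second cluster the control value rests on very few counts, from 28 cells with a median of 2827 UMIs. By the calculation above, macrophage-like cells would bring 5.90% of the B2m of early db/db alpha-like cells and T-like cells 1.41%. Late against early db/db, the ratio was -1.29 (-1.55 to -1.04). These alpha comparisons with early db/db were not among the planned ones. Neither the share of all genes past the fold nor the range over other settings is given for them. Delta-like cells had 50.2, 65.0 and 68.4 CPM in the intervention, late db/db and early db/db libraries, against 40 CPM.

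The other nonclassical genes were lower in beta-like than in endothelial-like cells. H2-T23, which encodes Qa-1, a ligand of NKG2A receptors on natural killer and CD8 T cells, was at 25.9, 44.9 and 55.3 CPM in beta-like cells of the intervention, late db/db and early db/db libraries, against 49.6 CPM, and at 320, 371 and 464 CPM in endothelial-like cells, against 440 CPM. In delta-like cells it was at 103, 114 and 163 CPM, against 143 CPM, where it made up 10.0% of the heavy chain UMIs of the control, more than the 5.20% of H2-Q2. H2-Q4 was at 13.5 to 25.9 CPM in beta-like and 181 to 282 CPM in endothelial-like cells. H2-Q7, which encodes the nonclassical molecule Qa-2, was at 0.653, 3.94 and 0.889 CPM in beta-like cells, against 0.807 CPM, and at 279 and 384 CPM in T-like cells of late and early db/db. Late db/db was the library with most lymphocytes, and its H2-Q7 in beta-like cells (112 UMIs) was high where the T cell markers given above were high. The summed B cell markers were high in late db/db, with UMIs for all 11, and in the control, where Ms4a1 and Pax5 were at 0. The part of RNA from B or T cells in the H2-Q7 value was not tested.

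The peptide loading genes did not separate the groups as the heavy chains did. Tap1 was low in beta-like cells, at 6.18, 6.58 and 5.40 CPM in the intervention, late db/db and early db/db libraries, against 8.07 CPM. Tap2, its partner in the transporter, was at 38.1, 44.4 and 49.4 CPM, against 31.6 CPM. Neither entered the beta comparisons. Tapasin, encoded by Tapbp, came nearest to the fold without passing it, at 84.3, 76.1 and 75.5 CPM in those libraries, against 142 CPM in the control. It did not differ to that degree in alpha-like cells, which had 67.3, 63.2 and 53.8 CPM, against 77.5 CPM, or in delta-like cells, which had 132, 130 and 139 CPM, against 144 CPM. This contrast depends on the scaling. All UMIs as the denominator moved log2 ratios of late db/db against control by 0.66 in beta-like, -0.13 in alpha-like and 0.05 in delta-like cells. That beta-like cells differ from the other endocrine cells in Tapbp was not tested.

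In endothelial-like cells late db/db was higher than the control in H2-D1 (4293 against 2110 CPM, log2 ratio 1.03), H2-K1 (2904 against 1448 CPM, 1.004) and H2-Q7 (231 against 96.2 CPM, 1.27). Of 9 members 3 were higher and 0 lower, where 18.0% of all genes were past the fold. In the intervention library against late db/db 4 of 8 members were lower, namely B2m (-1.16), H2-K1 (-1.14), H2-Q7 (-2.56) and Tap2 (-1.02). Of these, H2-Q7, at 39.2 CPM in the intervention library, was lower by the entry rule, and 16.4% of all genes were past the fold. These counts rested on 1 cluster led by Glycam1, a mucin of high endothelial venules, which held 46 of the 124 late db/db cells, 2 intervention cells and 0 cells of the others. Its late db/db cells had 4062 CPM of H2-K1, against 1038 CPM in the 78 late db/db cells of cluster 13, which all libraries shared. Of the 208 control cells, 166 lay in cluster 10, which held control cells only, and 42 in cluster 13. Within cluster 13 H2-D1 was at 2443 CPM in late db/db, against 1588 CPM in the control, and H2-K1 at 1038 CPM, against 1225 CPM. Without the Glycam1 cluster, an alternative chosen after the data were seen, H2-K1 in late db/db was at -0.48 and H2-Q7 at -0.71 against control. There 0 members were higher and 1 was lower, and 0 members were past the fold in the intervention library against late db/db. B cell markers summed to 151 CPM and T cell markers to 87.4 CPM in late db/db endothelial-like cells, against 54.4 and 24.8 CPM in the control. Their part in these values was not tested.

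In macrophage-like cells late db/db was higher than the control in both classical heavy chains and in loading genes. Here 6 of 9 members were higher and 0 lower, where 28.2% of all genes were past the fold. They were H2-D1 (4391 against 1785 CPM, log2 ratio 1.30), H2-K1 (2340 against 1114 CPM, 1.07), H2-Q4 (1.41), H2-Q7 (2.44), Tap1 (1.05) and Tapbp (1.25). Of these, H2-Q7, at 39.3 CPM in the control, was higher by the entry rule. In the intervention library against late db/db 4 of 9 members were lower, H2-K1 (-1.08), H2-Q4 (-1.03), H2-Q7 (-1.97) and Tap1 (-1.75), against 21.2% of all genes. Of these, Tap1, at 33.4 CPM in the intervention library, was lower by the entry rule. The late library held 67 such cells, and 41 of them formed a cluster that held no intervention or control cell. Those 41 cells had 2811 CPM of H2-K1 and 141 CPM of Tap1, against 1030 and 34.5 CPM in the 26 late db/db cells of the cluster found in every library. With that shared cluster alone, an alternative also chosen after the data were seen, H2-D1 in late db/db was at 0.57 against control, 1 member was higher and 1 lower, and H2-K1 turned to -0.11. With trimmed mean of M values scaling, which moved the median of all genes by -0.31, 2 of the 9 members were higher.

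**Figure D5:**
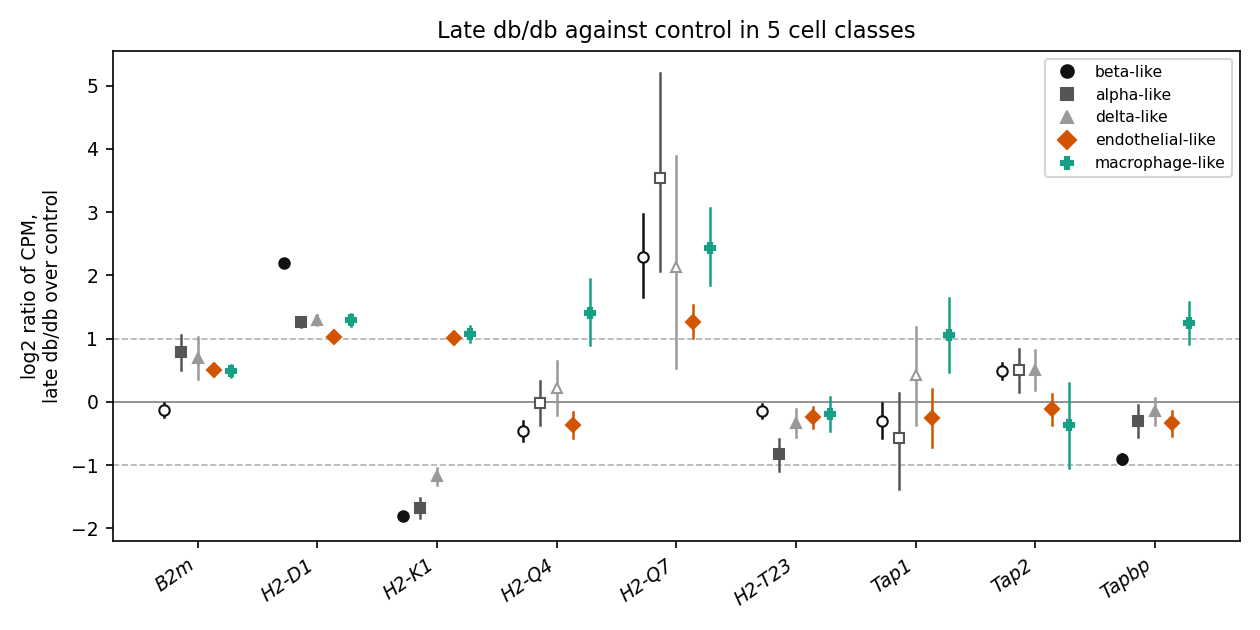
Log2 ratios of CPM, late db/db over control, for 9 members in 5 cell classes. Lines are 95% counting intervals, open symbols are genes that did not enter, and dashed lines mark 2-fold. H2-K1 lay below zero in the endocrine classes (-1.80, -1.68 and -1.17) and above it in endothelial- (1.004) and macrophage-like cells (1.07).

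Lymphocytes could be compared between late and early db/db only, which also differ in age. In B-like cells H2-D1 was at 2378 CPM in late and 2879 CPM in early db/db, H2-K1 at 960 and 1057 CPM, and B2m at 926 and 1538 CPM, and 0 of 9 members were past the fold (19.9% of all genes). In T-like cells H2-D1 was at 3248 CPM in late and 5182 CPM in early db/db and H2-K1 at 1368 and 2177 CPM, and again 0 of 9 members were past the fold (14.7%). The T-like cells of the libraries lay in different clusters. Of the 2045 late db/db cells 1202 were in cluster 19, which held 2 early db/db cells, and of the 115 early db/db cells 66 were in cluster 24, which held 175 late db/db cells. Within cluster 24 H2-D1 was at 3291 CPM in late and 4976 CPM in early db/db. The median of the members was 0.04 in B-like and -0.19 in T-like cells, beside 0.46 and -0.29 over all genes.

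Other genes of the pathway were read in beta-like cells, late db/db against control, beside the 16.4% of all genes past the fold. Of the peptide supply and folding list, 6 of 11 genes entered and 0 were past the fold. Those furthest from zero were Psme1, an activator of the proteasome, at -0.85 and Canx, the chaperone calnexin, at -0.78. Pdia3, which helps folding in the loading complex, was at 0.68 and Tapbpl, a tapasin-like protein, at 0.50. Of 15 regulators 3 entered, and 1 was higher and 1 lower. Ifnar2, a chain of the type I interferon receptor, was higher at 1.68 (99.4 against 31.0 CPM). Nfkb1, a subunit of NF-kappa-B, was lower at -1.09 (39.0 against 82.9 CPM). Ifnar2 could enter only through late db/db and Nfkb1 only through the control. The entry rule thus fixed both directions, and nothing is read from them. Of 26 interferon response genes 2 entered, Ly6e at 0.87 and Ifi27 at 0.63, and 0 were past the fold. Nlrc5, the main activator of class I genes, was at 0.0816, 0.668 and 0.0318 CPM in the intervention, late db/db and early db/db libraries, against 0.0646 CPM. Of 12 other class I and class I-like genes 1 entered, H2-M3 at 0.38, and of 10 class II genes and 7 class I receptor genes 0 entered. Of 137 genes within 500 kb of H2-K1, H2-D1 or H2-T23, with class I and class II genes left out, 26 entered. Of these 1 was past the fold, Ehmt2 at -1.34.

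In macrophage-like cells these lists lay in both directions, late db/db against control. Past the fold were 28.2% of all genes. Of the class II genes, which present peptides to CD4 T cells, 8 of 8 that entered were lower. Their median was -2.83, beside 0.33 over all genes. Irf1, a transcription factor of the interferon response, was higher at 1.63 (134 CPM in late db/db, against 43.4 CPM in control cells). Of 16 interferon response genes 5 were higher and 5 lower, and the extremes were Cxcl9 (317 UMIs in late db/db cells and 1 UMI in control cells) and Ifit3 (1 UMI in late db/db cells and 51 UMIs in control cells). In endothelial-like cells 2 of 15 interferon response genes were higher and 6 lower, and 4 of 4 class II genes were higher. These values carry the same limits of cluster make-up as the members' values in those cells.

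Across the 24 sums of cells by class and library, the genes whose log2 levels followed B2m most closely were Lgals9 (Pearson r 0.97), Mcl1, Trim30a, Ostf1 and Arpc1b. For H2-D1 they were Tpm3-rs7 (0.90), Vim, H2-Q6, Ldha and Acot9. H2-Q2 had 1 close companion among 7503 genes, Tmsb15b1 (0.91), and the next, Lamtor3, was at 0.75. The sums share libraries and depth, so these values only describe the likeness of levels.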

How the data were processed

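Single-cell RNA was measured in 4 libraries of islet cells, 1 for each group. The authors deposited UMI counts per gene and cell barcode, whose header names software version 3.0.0, per the file headers. Cell Ranger, Seurat, CASAVA 1.8 and the mm10 build are named without role, per the submitters' processing notes. The handling of reads shared between class I copies is not stated there.

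Cells needed 1000 UMIs, 500 genes and at most 20% mitochondrial UMIs. The highest Scrublet scores were removed as doublets, 0.8% for each 1000 cells, since the automatic threshold marked 2 cells of the intervention library. Cells were clustered jointly with scanpy 1.11.5 (2000 variable genes, 30 components, 15 neighbours, Leiden resolution 1 with igraph 0.11.9), without integration and without hormone, mitochondrial, ribosomal, MHC, antigen presentation and interferon genes. Clusters with fewer than 3 own markers among their 25 leading genes were clustered again (20 components, resolution 0.5), and a name needed 2 such markers. These last settings were chosen after the data were seen, and cell classes rest on rebuilt names.

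Counts were summed by class and library with at least 50 cells. Ratios of CPM carry exact conditional binomial 95% intervals (scipy 1.17.1). A fold against a library at 0 used a floor of 3 UMIs. No test between groups was possible with 1 library each. Trimmed mean of M values factors came from edgeR 4.0.16 in R 4.3.3. The ratio step was tested on simulated data. All 10 members were described, and of each pathway list up to 4 genes with the largest ratios were to be named. Nlrc5 and H2-Q1 were named after their values were seen. The result of a further regulator is not reported here. The members and lists were chosen with earlier results of these data known. Alternatives were other denominators, stricter cells, no doublet removal, free RNA subtraction, lower entry, equal cell weight, clustering with MHC genes, and 2 choices of clusters added after the data were seen.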

Additional observations from a re-analysis of the deposited data

Results flagged for a closer look

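H2-K1 went opposite ways between cell classes in late db/db against control. Its log2 ratio was 1.0041 in endothelial-like and 1.0709 in macrophage-like cells, and -1.7989 in beta-like, -1.6799 in alpha-like and -1.1749 in delta-like cells. The difference between classes was not tested. Without the Glycam1 cluster the endothelial ratio was -0.48, and in the macrophage-like cluster present in all libraries it was -0.11.

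Pericyte-like cells were in no comparison. Their summed heavy chain genes stood at 1647.77 CPM in early db/db, above the 602 CPM of the control.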

How the results depend on the processing

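Of 32 member ratios past 2-fold, all kept their sign in each of the 8 planned settings, where those with all UMIs as the denominator and with trimmed mean of M values (TMM) scaling could be read for 28. The 32 include ratios whose direction the entry rule fixed. These are H2-Q2 against control, and H2-Q7 of macrophage-like cells in late db/db against control. In the intervention library against late db/db they are H2-Q7 of endothelial-like and Tap1 of macrophage-like cells. Nothing is read from their kept sign or from their place past the fold. Still past the fold were 27 with all UMIs, 23 with TMM, 32 with stricter cells, 27 without doublet removal, 29 with free RNA subtracted, 32 with lower entry, 22 with equal cell weight and 27 with MHC genes in the clustering. Lower entry changed only which genes were compared, so its signs and its 32 past the fold were fixed in advance.

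The summed heavy chains in beta-like cells, late db/db against control, were at 0.69, and at 1.35 with all UMIs, 0.97 with TMM and 0.66 with free RNA subtracted. The intervention library against late db/db was at -0.18, and at -0.38, -0.21 and -0.15 under those settings and -0.14 with equal cell weight. Members past the fold in beta-like cells numbered 3 against control in each db/db library, H2-Q2 among them by the entry rule. With all UMIs they numbered 2 in the intervention library and late db/db and 1 in early db/db, where 2 members entered. In the intervention library against late db/db 0 became 1 without doublet removal. In B-like cells, late against early db/db, 0 became 1 lower with TMM and 2 higher with stricter cells.

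In macrophage-like cells the 6 members of late db/db against control became 2 with TMM, and 3 each without doublet removal, with equal cell weight and with MHC genes in the clustering. The 4 of the intervention library against late db/db became 2 in each of the last 3 settings. In the cluster present in all libraries, chosen after the data were seen, the counts were 2 and 1, H2-K1 turned to -0.11 and Tapbp to -0.32 in late db/db against control, and H2-K1 to 0.10 in the intervention library against late db/db.

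In endothelial-like cells the 3 members of late db/db against control became 1 with free RNA subtracted and 0 with equal cell weight, and the 4 of the intervention library against late db/db became 2 with equal cell weight. Without the Glycam1 cluster, chosen after the data were seen, the counts were 1 and 0. H2-K1 turned to -0.48 and H2-Q7 to -0.71 in late db/db against control, and B2m to 0.14 and H2-K1 to 0.35 in the intervention library against late db/db. The causes of the other changes were not tested. Macrophage-like cells numbered 67 to 142 in a library, and no library has a replicate.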

Other observations

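Classes outside the comparisons ranged widely in class I. Dendritic-like cells of late db/db (106 cells) had 5460 CPM of B2m and 11606 CPM of summed heavy chain genes, above every class in the comparisons. Acinar-like cells of early db/db (127 cells) had 11.9 CPM of B2m and 122 CPM of summed heavy chain genes, below the endocrine classes. Duct-like cells of the same library (161 cells) had 702 and 4623 CPM. Fibroblast-like cells had summed heavy chain levels of 2969 CPM in the intervention library (69 cells), 5637 CPM in late db/db (172 cells) and 5255 CPM in early db/db (264 cells).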
